A study of Mus musculus with 12 samples.

Results

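The comparison described here set mouse cells that still displayed Thy-1 on day 6 of reprogramming (D6T+) against the fibroblasts from which the experiment started (D0). Genes were members where either library reached 1 FPKM, which left 11894 of the 24098 genes of the table. FPKM is the number of sequenced fragments scaled to transcript length and to the mapped fragments of the library. Differences are given as log2(FPKM + 1) in D6T+ minus D0 unless stated otherwise, and a gene is called higher or lower where the difference reached 2-fold. This scale understates the change of genes with low levels. With 1 library a side and no replicates, no difference carries a test or a replicate check, and all are descriptions of these libraries.

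The series held 12 mRNA-Seq libraries of a reprogramming course that started from mouse embryonic fibroblasts (MEFs). D0 was made from unsorted, uninfected MEFs whose Oct4 gene carries an EGFP reporter behind its coding sequence, grown in DMEM with fetal bovine serum. D6T+ came from the same kind of MEFs after infection with pMXs retroviruses for Oct4, Sox2, Klf4 and c-Myc (OSKM) in the presence of polybrene, followed by culture in what the labels give as FF medium (DMEM/F12 with Knockout Serum Replacement, LIF, ascorbic acid, basic FGF, CHIR99021 and N-2) and sorting of Thy-1+ cells on day 6. For orientation, levels are also given in unsorted cells of day 3 (D3), in the Thy-1- fraction of day 6 (D6T-) and in the Thy-1+ fraction of day 9 (D9T+), all infected like D6T+. The study's methods name mESC and KOSR media as well as FF medium for reprogramming, so the medium of these libraries rests on the labels.

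Infection, days in culture, medium and sorting all separated D6T+ from D0, and their parts cannot be told apart. A Thy-1+ gate does not say whether a cell carried all the viruses. MEFs are a mixed population from dissociated embryos and can hold cells of several lineages.

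Thy-1 is a small surface glycoprotein that marks fibroblasts, and its loss is an early step on the path of fibroblasts towards pluripotency. Fibroblasts make and remodel the extracellular matrix through collagens, matrix glycoproteins, crosslinking enzymes and proteases, and can take on a contractile state with smooth muscle actin when TGF-beta signals. In reprogramming, many infected cells do not go on to pluripotency and keep a Thy-1+ state.

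The sorting label was checked first. Thy1 (chr9:43851467-43856662 in mm9, plus strand) stood at 669 FPKM before infection and at 477 FPKM in D6T+, a difference of -0.49, against 123 FPKM in D3 and 3.24 FPKM in D6T-. The level in D6T+ therefore lay nearer to that of the starting cells than to that of either other library. Of 11 fibroblast markers, all 11 were kept, and their summed level was 8254 FPKM in D0 and 3186 FPKM in D6T+. Twist2 and Prrx1, transcription factors of mesenchymal cells, were at 435 and 44.4 FPKM in D0 and at 310.5 and 52.8 FPKM in D6T+. Thy1 and both regulators stayed within 2-fold, while 7 of the 11 markers were lower by at least 2-fold, with a median difference of -1.29.

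Among the 11894 genes, 685 were at least 2-fold higher in D6T+ (5.76%) and 623 were at least 2-fold lower (5.24%). A 4-fold threshold left 202 higher genes (1.70%) and 107 lower genes (0.900%). The median difference of all genes kept was -0.06, with 5317 genes above 0 and 6577 below 0. The 4 genes just past the upper threshold had differences up to 1.0043 and the 4 just short of it had differences from 0.9972. On the lower side the corresponding sizes were 1.0021 and 0.995. The balance of higher and lower genes depended on scaling. With both libraries set to the same total FPKM the counts became 972 higher and 419 lower, so that 69.9% of the genes past the threshold were higher, against 52.4% with the deposited values. This scaling shifted log2 ratios by 0.27, and the median of all genes to 0.18.

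**Figure D1:**
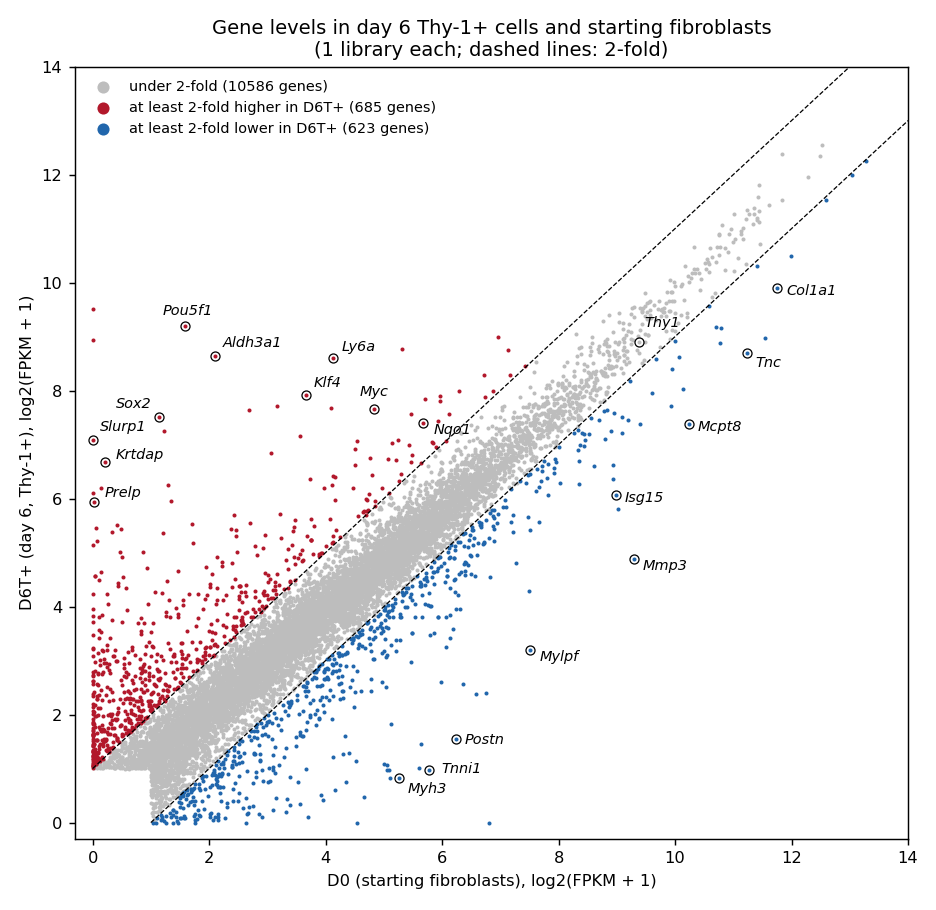
Level of each of the 11894 genes in starting fibroblasts (D0, horizontal axis) and in day 6 Thy-1+ cells (D6T+, vertical axis), both as log2(FPKM + 1), with 1 point per gene and dashed lines at a 2-fold difference. The 685 higher genes (red) lie above the upper line and the 623 lower genes (blue) below the lower line, with Thy1 between the lines.

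The same count of genes, each against D0 with its own filter, gave 816 higher (6.84%) and 1229 lower genes (10.3%) in D3, 1336 higher (11.0%) and 2051 lower genes (16.9%) in D6T-, and 1421 higher (11.6%) and 1067 lower genes (8.68%) in D9T+. With the deposited values, D6T+ therefore had the smallest counts of the 4 infected libraries compared, which all share the D0 library. With the same total FPKM as D0, D6T+ had 972 higher genes, above the 816 of D3 with deposited values. The other infected libraries were not rescaled, so this order may depend on scaling. Of the 685 genes higher in D6T+, 392 had a larger level in D6T- than in D6T+ and 293 a smaller one. Of the 623 genes lower in D6T+, 514 had a still smaller level in D6T-, 106 a larger one, and 3 were equal.

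The precision of single values was low. The interval that the authors' software gave to each FPKM had a median half-width of 100% of the FPKM in D6T+ among genes of at least 10 FPKM. The intervals of both libraries lay apart for 8 genes. Aldh3a1, Avil, Miat, Podxl and Prelp were higher in D6T+ by this measure, and Col1a1, Postn and Tnc were lower. The D0 intervals of Col1a1 (3442 to 3465 FPKM) and Tnc (2392 to 2407 FPKM) were far narrower than those of most genes, and both calls rest on them. Depth relative to D0, taken from the steps between low values, was 1.26 in D6T+. Absolute depth is unknown. The total FPKM was 648264 in D0 and 539242 in D6T+, and the 50 highest genes held 22.7% and 21.8% of it. Another 61 genes were listed at 0 in D0 and reached 1 FPKM in D6T+, and 9 genes showed the reverse. No fold is given for such genes. The most extreme was the microRNA gene Mir1982, listed at 726 FPKM in D6T+ and at 0 in D0, D3, D6T- and D9T+.

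Transcript composition moved with the differences. Among the 10913 genes with a transcript sequence, the fifth with the lowest GC content (33.1 to 45.3%) had a median difference of 0.145, and the fifth with the highest (56.4 to 72.9%) had one of -0.243. The median also ran from -0.218 in the fifth with the shortest transcripts to 0.113 in the fifth with the longest. The part of GC content and length in the differences of single genes was not tested.

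The delivered factors were the largest class of increase. Pou5f1, the gene of Oct4 (chr17:35642982-35647721 in mm9, plus strand), was at 1.99 FPKM in D0 and 587 FPKM in D6T+, a difference of 7.62. Sox2 went from 1.21 to 181 FPKM (6.36), Klf4 from 11.7 to 242 FPKM (4.26) and Myc from 27.3 to 202 FPKM (2.84). Reads of the retroviral and the endogenous copies cannot be told apart in these values. All 4 factors were lower in D6T+ than in D3 and in D6T-. Pou5f1 was at 858 FPKM in D3 and 1935 FPKM in D6T-, Sox2 at 427 and 436 FPKM, Klf4 at 359 and 587 FPKM, and Myc at 378 and 542 FPKM.

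Fibroblast matrix genes were lower in D6T+. Of 19 collagen genes kept, 10 were lower and 0 higher, with a median difference of -1.02. With the same total FPKM, 7 were lower and 1 higher, with a median of -0.785. Centring on GC content gave 8 lower and 1 higher, with a median of -0.817. Col1a1 and Col1a2 encode the chains of type I collagen, the main fibre of connective tissue. Col1a1 was at 3453 FPKM in D0 and 960.0 FPKM in D6T+ (-1.85), and Col1a2 was at 1738 and 471 FPKM (-1.88). The microfibril collagen gene Col6a3 fell from 488 to 97.2 FPKM (-2.32), and the fibril-associated Col12a1 from 113 to 22.3 FPKM (-2.29). Col3a1, at 1175 and 690 FPKM, did not reach 2-fold. The basement membrane chains Col4a1 and Col4a2 stood apart from this group, at 371 and 408 FPKM in D0 and at 448 and 435 FPKM in D6T+. In D6T- the type I chains were lower again, at 98.2 FPKM for Col1a1 and 95.2 FPKM for Col1a2.

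Of 27 non-collagen matrix genes kept, 13 were lower and 2 higher, with a median of -0.95. Postn, the gene of periostin (chr3:54165031-54194961 in mm9, plus strand), was at 74.6 FPKM in D0 and 1.94 FPKM in D6T+, and its difference of -4.68 was the second largest decrease among the genes named by rank. Tnc, the gene of tenascin C, was at 2399 FPKM in D0 and 416 FPKM in D6T+ (-2.52). Bgn, the gene of the proteoglycan biglycan, was at 2983 and 503 FPKM (-2.57). Fn1, the gene of fibronectin, was at 1124 and 259 FPKM (-2.11). These genes were abundant in D0 and remained above 250 FPKM in D6T+, except Postn. The matrix gene Prelp went the other way (chr1:135806881-135817991 in mm9, minus strand), at 0.0133 FPKM in D0 and 60.0 FPKM in D6T+. It encodes a leucine-rich proteoglycan that anchors basement membranes, and its level was 2.51 FPKM in D3, 15.3 FPKM in D6T- and 154 FPKM in D9T+. Fbn2, a microfibril gene, was also higher, at 7.81 and 18.7 FPKM.

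Enzymes that mature and cut the matrix had negative list medians. Among 19 genes of collagen processing, 6 were lower and 0 higher, with a median of -0.73. With the same total FPKM, 3 were lower and 1 higher, with a median of -0.47. Loxl2, which crosslinks collagen, was at 258 FPKM in D0 and 76.9 FPKM in D6T+ (-1.73), and the procollagen protease gene Bmp1 was at 336 and 147 FPKM (-1.19). Of 19 matrix proteases and inhibitors, 7 were lower and 2 higher, with a median of -0.63. Mmp3, the gene of stromelysin 1 (chr9:7445822-7455972 in mm9, plus strand), was at 624.5 FPKM in D0 and 28.4 FPKM in D6T+ (-4.41). It was lower still in D3, at 9.25 FPKM, and in D6T-, at 2.87 FPKM. Plau, the gene of urokinase, was at 519 and 55.2 FPKM (-3.21), and the membrane protease gene Mmp14 was at 777 and 248.5 FPKM (-1.64). The higher genes were Timp3, an inhibitor of these proteases, at 12.4 and 36.4 FPKM, and the aggrecanase Adamts5, at 0.569 and 3.96 FPKM. Across the Mmp family, a group chosen after its values were seen, 13 of 23 genes were kept, 6 were lower, and Mmp28 was the 1 higher gene, at 0.530 and 5.72 FPKM.

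Surface proteins used to describe fibroblasts split in both directions. Of 18 genes kept, 3 were lower and 3 higher, with a median of -0.27, and with the same total FPKM 1 was lower. The receptor gene Pdgfra was at 38.0 FPKM in D0 and 13.6 FPKM in D6T+ (-1.42), Pdgfrb was at 38.9 and 18.4 FPKM (-1.04), and the fibronectin receptor chain Itga5 was at 245 and 105 FPKM (-1.21). In D3 and D6T-, Pdgfra was at 0.740 and 0.968 FPKM. Ly6a, which encodes the surface antigen Sca-1, went from 16.4 to 389 FPKM (4.49), Ly6c1 from 7.31 to 114 FPKM (3.79) and Mcam from 5.76 to 14.46 FPKM (1.19). The level of Ly6a was near 300 FPKM in D3 and D6T-, at 295 and 320 FPKM.

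**Figure D2:**
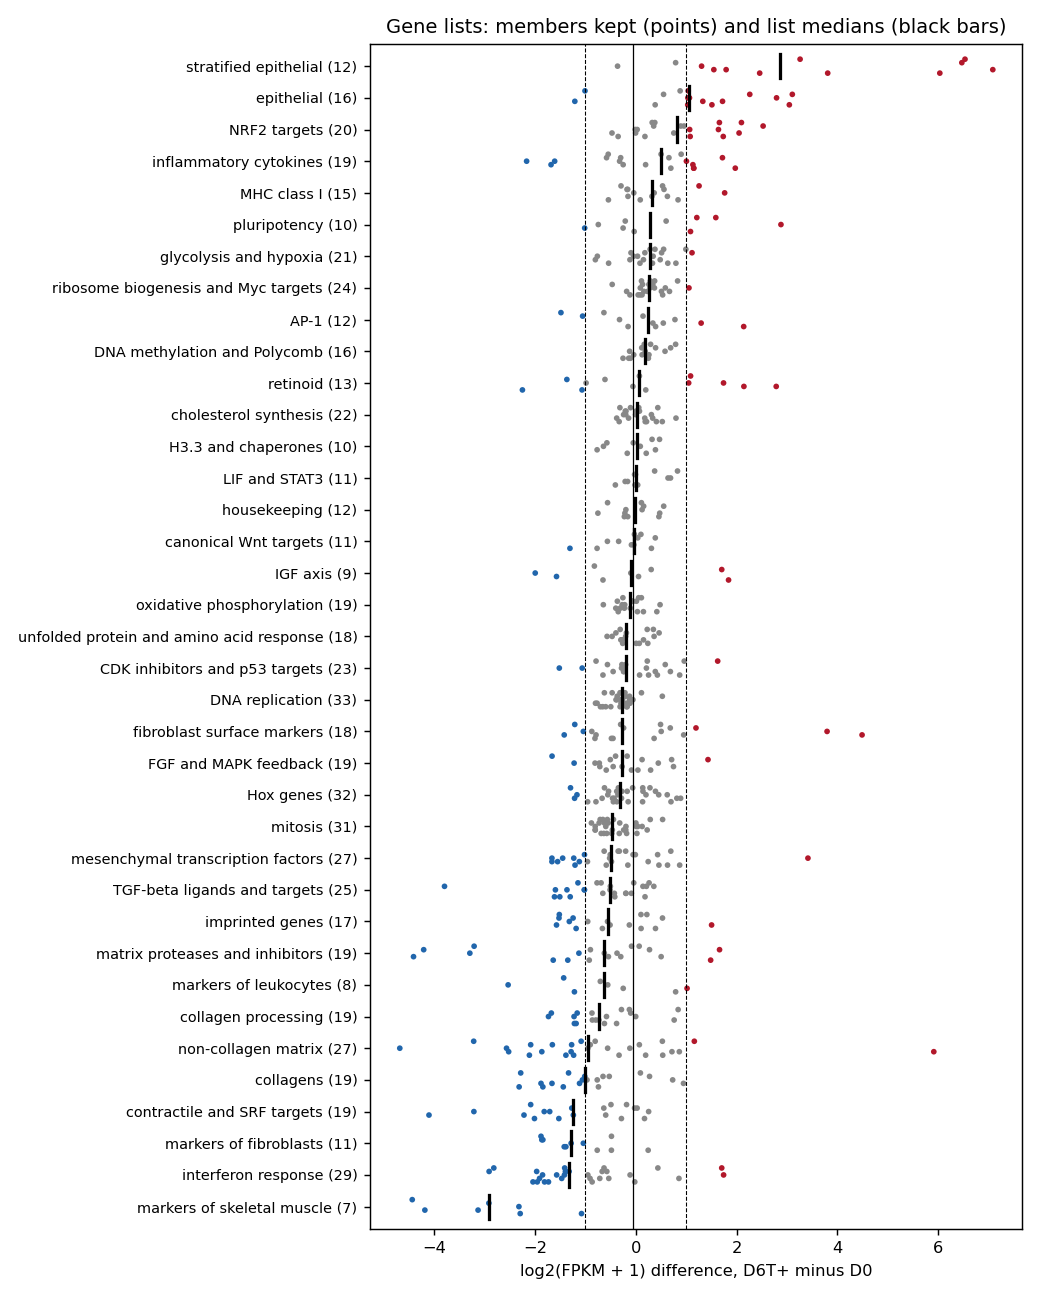
Log2(FPKM + 1) difference, D6T+ minus D0, of every gene kept in 37 gene lists (points; number of genes in parentheses), with the list median as a black bar and dashed lines at 2-fold. Medians run from -2.92 for markers of skeletal muscle to 2.86 for stratified epithelial genes, and the solid vertical line is the median of all genes, -0.06.

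Among contractile genes and targets of serum response factor (SRF), 19 were kept, 10 were lower and 0 higher, with a median of -1.24. Without the muscle actins Acta1 and Actc1, which moved with the muscle markers described below, 8 of 17 were lower and the median was -0.64. Acta2, the gene of smooth muscle actin, was at 675 FPKM in D0 and 166.5 FPKM in D6T+ (-2.01). Tagln, the gene of transgelin, was at 974 and 208 FPKM (-2.22), against 10.4 FPKM in D6T-. Myl9, a myosin light chain of smooth muscle and stress fibres, was at 326.5 and 76.1 FPKM (-2.09). D3 stood nearer to D0 for these genes, with 575 FPKM for Acta2, 652 FPKM for Tagln and 295 FPKM for Myl9. Acta1 and Actc1, the actins of skeletal and cardiac muscle, went from 180 to 18.5 FPKM (-3.21) and from 32.9 to 0.971 FPKM (-4.11).

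SRF binds the CArG box, and promoter windows of RefSeq (build GRCm38.p6, 250 bases before to 50 bases after the start) were searched for it on both strands. The box was found in 6 of 15 contractile promoters (40%) against 1.62% of 8992 promoters of kept genes. Windows around the match in 3 of the lower genes are shown because these 3 of the 6 holders passed 2-fold, with the box in capitals. Actc1 lies at chr2:114052883-114052952 (minus strand), Acta1 at chr8:123894809-123894878 (minus strand) and Myl9 at chr2:156775273-156775342 (plus strand).
Actc1: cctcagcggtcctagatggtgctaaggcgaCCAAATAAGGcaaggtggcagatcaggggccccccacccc
Acta1: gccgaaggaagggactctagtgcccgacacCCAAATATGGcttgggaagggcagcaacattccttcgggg
Myl9: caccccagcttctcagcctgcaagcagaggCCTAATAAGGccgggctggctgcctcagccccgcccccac
Vcl, Srf and Cnn2 also hold the box, with differences of -0.03, -0.29 and -0.64. The list was drawn up to hold targets of SRF, so a larger share of the box is built into its choice. A match is a description of the letters and not a measured site.

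Genes of striated muscle made up 11 of the 15 largest decreases. Of 10 markers of skeletal muscle, 7 were kept and all 7 were lower, with a median of -2.92. Of the 7, 5 passed the filter only through D0, and the median over all 10 was -2.31. Their summed level over the 10 markers was 161 FPKM in D0 and 21.6 FPKM in D6T+. Myog, the gene of the muscle regulator myogenin (chr1:136186581-136189124 in mm9, plus strand), started at 24.2 FPKM in D0 and was at 7.51 FPKM in D3, 0.906 FPKM in D6T- and 0.384 FPKM in D6T+. Myod1, which sets muscle identity, was at 4.96 FPKM in D0 and 0.214 FPKM in D6T+. Tnni1, the slow troponin I gene (chr1:137679642-137707566 in mm9, plus strand), had the largest decrease of the genes named by rank, from 53.9 to 0.976 FPKM (-4.80). Mylpf, a fast light chain, was at 182 and 8.20 FPKM (-4.32). The progenitor markers Pax7 and Myf5 were below 0.1 FPKM in both libraries. In the sarcomere and myosin families, chosen after their values were seen, 27 of 40 genes were kept, 20 were lower and 0 higher, and 11 passed the filter only through D0. In bulk samples, fewer cells of a type and less RNA per cell cannot be told apart, and the sort of D6T+ is itself a difference between the libraries.

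**Figure D3:**
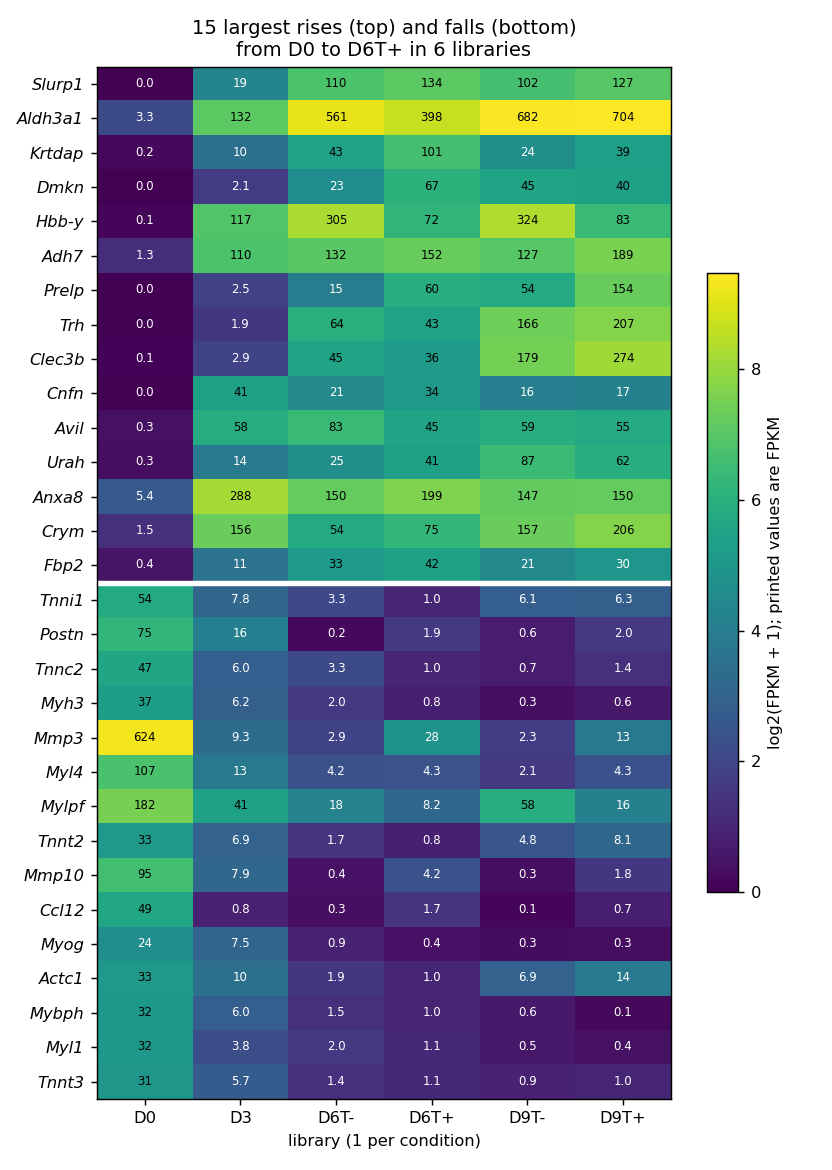
The 15 largest increases (top) and 15 largest decreases (bottom) from D0 to D6T+ by the naming rule, with colour for log2(FPKM + 1) and printed FPKM, in 6 libraries of 1 per condition. The decreases are led by Tnni1, from 53.9 to 0.976 FPKM, and the increases by Slurp1, listed at 0 in D0 and at 134.5 FPKM in D6T+.

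Genes of the TGF-beta pathway, which drives matrix production and contractility in fibroblasts, were lower in 9 of 25 kept genes and higher in 0, with a median of -0.51. The ligand gene Tgfb1 was at 72.5 FPKM in D0 and 28.8 FPKM in D6T+ (-1.30). The receptor gene Tgfbr2 was at 130 and 156 FPKM. Among targets, Pmepa1, which feeds back on the pathway, was at 80.9 and 4.89 FPKM (-3.80), Ctgf was at 31.3 and 9.56 FPKM (-1.62), and the inhibitory Smad7 was at 17.5 and 5.50 FPKM (-1.51). The ligand and target genes named were picked for the size of their fall, and 5 of the 25 genes were above 0. With the same total FPKM, 7 were lower and the median was -0.26. Centring on GC content left 6 lower, with a median of -0.34.

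Other growth signals were mixed. Wnt ligands, a family chosen after its values were seen, had 8 of 19 genes kept, 5 lower and 1 higher. Wnt5a was at 95.5 FPKM in D0 and 30.1 FPKM in D6T+ (-1.63), Wnt7b at 16.5 and 1.31 FPKM (-2.92), and Wnt16 at 0.273 and 7.52 FPKM (2.74). Of 11 canonical Wnt targets kept, 1 was lower, namely Axin2 at 5.04 and 1.44 FPKM (-1.31). The FF medium of the labels contains CHIR99021, an inhibitor of GSK3 that stabilises beta-catenin. In the IGF axis, the binding protein genes Igfbp3 (61.8 and 224 FPKM) and Igfbp6 (76.9 and 253 FPKM) were higher, while Igfbp5 (94.0 and 22.8 FPKM) and the ligand Igf2 (83.5 and 27.4 FPKM) were lower. Of 19 genes of FGF and MAPK feedback, 2 were lower and 1 higher, and Etv4, a target of this pathway, was at 85.6 and 26.4 FPKM (-1.66). Of 12 AP-1 genes, Fos went from 16.2 to 74.9 FPKM (2.14) and Fosb from 2.86 to 8.48 FPKM (1.29), and Batf and Batf3 were lower. Of 11 genes of the LIF and STAT3 pathway kept, 0 reached 2-fold in either direction.

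Retinoid genes differed in both directions. Of 13 genes kept, 5 were higher and 3 lower, with a median of 0.07. Cyp26b1, which degrades retinoic acid, was at 2.84 FPKM in D0 and 25.5 FPKM in D6T+ (2.78), and the binding protein gene Crabp2 was at 51.1 and 229 FPKM (2.14). The synthesis genes Aldh1a1 (0.463 and 3.89 FPKM) and Aldh1a3 (0.493 and 2.17 FPKM) were higher, while Aldh1a2 (4.25 and 1.03 FPKM) was lower. Stra6, the receptor for retinol binding protein, was at 65.9 and 13.04 FPKM (-2.25), and Crabp1 was at 6195 and 2953 FPKM (-1.07).

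Of 27 transcription factors of mesenchyme kept, 8 were lower and 1 higher, with a median of -0.48. Setting both libraries to the same total FPKM left 5 lower and 2 higher with a median of -0.22, and centring on GC content left 4 lower and 2 higher. Osr2 was at 15.0 FPKM in D0 and 4.04 FPKM in D6T+ (-1.67), Hic1 at 105 and 35.0 FPKM (-1.55), and Snai1, a repressor of epithelial genes, at 57.5 and 23.9 FPKM (-1.23). Foxd1 was the higher gene, at 0.258 and 12.4 FPKM (3.41), and reached 80.2 FPKM in D6T-. Of 32 Hox genes kept, which hold the positional identity of fibroblasts, 3 were lower and 0 higher, with a median of -0.32. Those 3 are 9.38% of the 32, against 5.24% lower among all genes kept. The lower ones were posterior members, Hoxd10 at 3.46 and 0.814 FPKM, Hoxa11 at 17.1 and 6.80 FPKM and Hoxa13 at 2.03 and 0.347 FPKM. With the same total FPKM, 2 of 33 Hox genes were lower and 2 higher, with a median of -0.09. Centring on GC content gave 4 lower and 2 higher. Of 17 imprinted genes kept, 6 were lower and 1 higher, with a median of -0.56. Centring on GC content left 3 lower among 13 genes. Among them, H19 was at 454 and 199 FPKM (-1.19), Meg3 at 123 and 51.5 FPKM (-1.25), and Snrpn at 5.93 and 18.6 FPKM.

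Several epithelial genes were higher in the Thy-1+ cells. Of 30 listed genes, 16 were kept, 11 were higher and 2 lower, with a median of 1.05. Of the 16, 8 were under 1 FPKM in D0 and passed the filter only through D6T+, and the median over all 30 genes was 0.48. Krt8, a keratin of simple epithelia, was at 4.22 FPKM in D0 and 42.1 FPKM in D6T+ (3.04). Its usual partner Krt18 was at 56.5 and 23.8 FPKM (-1.21). Dsp, the gene of the desmosome protein desmoplakin, was at 0.929 and 15.6 FPKM (3.10). Cdh1, the gene of E-cadherin, was at 0.150 and 2.27 FPKM (1.51), with 6.05 FPKM in D6T-, and Epcam was at 0.528 and 2.84 FPKM (1.33), with 13.4 FPKM in D6T-. Junction genes were therefore present at low levels in D6T+ and at higher ones in the Thy-1- fraction.

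Genes of stratified epithelia, the layered tissue of skin and oesophagus, had the highest list median after the delivered factors. The lists were chosen with earlier results of these data known, and this one holds some of the largest increases. Its rank is therefore not independent of that choice. Of 18 listed genes, 12 were kept, 10 were higher and 0 lower, with a median of 2.86. Of the 12, 5 passed the filter only through D6T+, the median over all 18 genes was 1.43, and it was 4.34 for the 12 with a pseudocount of 0.1. Slurp1, a secreted protein of keratinocytes (chr15:74557074-74558456 in mm9, minus strand), was listed at 0 before infection, and its level was 18.96 FPKM in D3, 110 FPKM in D6T- and 134.5 FPKM in D6T+. Aldh3a1, an aldehyde dehydrogenase of the corneal epithelium (chr11:61021039-61031923 in mm9, plus strand), was at 3.31 FPKM in D0 and 398 FPKM in D6T+ (6.53). Krtdap, a differentiation protein of keratinocytes (chr7:31572924-31576102 in mm9, plus strand), was at 0.155 and 101 FPKM (6.47), with 42.6 FPKM in D6T-. The alcohol dehydrogenase gene Adh7 was at 1.33 and 151.5 FPKM (6.03). The basal keratin gene Krt14 reached only 4.82 FPKM in D6T+, from 0.0609 FPKM, and Krt5 and Trp63, the defining genes of basal keratinocytes, were below 1 FPKM in both libraries. In RefSeq promoter windows, the AP-1 element (TGANTCA on both strands) was found in 4 of 7 stratified epithelial promoters (57.1%) and in 6.25% of 8992 promoters of kept genes.

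Runs of neighbouring genes past 2-fold in 1 direction lay at several of these loci. Positions were taken from GENCODE in mm9, and a run was defined as 3 or more genes in a row, among 10977 kept genes with a single position, that all passed 2-fold in the same direction. There were 9 runs of higher genes with 33 genes and 12 runs of lower genes with 40 genes, beside 685 higher and 623 lower genes in all. These runs were defined after the values were seen, and the shared direction within a run follows from its definition. No expected number of runs was worked out. Sbsn, Dmkn and Krtdap lie together at chr7:31536490-31576102, with Sbsn at 16.0 FPKM in D0 and 203 FPKM in D6T+ and Dmkn listed at 0 in D0 and at 67.5 FPKM in D6T+. The kallikrein run from Klk14 to Klk8 at chr7:50945788-51059192 held 5 genes of skin proteases, with Klk8 at 0.904 and 25.4 FPKM and Klk10 at 0.841 and 11.9 FPKM. Keratin runs stood on chr11:99289717-100110276, from Krt20 to Krt16, and on chr15:101177875-101834773, from Krt80 to Krt8. Across the keratin family, also chosen after its values were seen, 10 of 52 genes were kept, 9 were higher and 1, Krt18, was lower. Of these 10, 7 were under 1 FPKM in D0 and passed the filter only through D6T+, as did all 5 kallikrein genes kept, so that the direction of these genes was largely set by the filter.

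The Ly6 cluster at chr15:74545269-75397685, also chosen after its values were seen, held 14 genes, of which 7 were kept, 5 were higher and 0 lower. It begins with Psca, Lypd2 and Slurp1, all listed at 0 in D0 and kept only through D6T+. Lypd2 overlaps Slurp1 on the same strand, so that their reads may be shared. Ly6a and Ly6c1 lie in the middle of the cluster. Ly6e, the most abundant gene of the cluster, was at 913 FPKM in D0 and 669 FPKM in D6T+, a difference of -0.45. Of 11 aquaporin genes, a family also chosen after its values were seen, 5 were kept and all 5 were higher, 3 of them kept only through D6T+. Aqp5, a water channel of glands and cornea, was at 7.97 FPKM in D0 and 210 FPKM in D6T+ (4.56), Aqp3 was at 0.826 and 31.1 FPKM (4.14), and Aqp1 was at 10.1 and 47.9 FPKM (2.14).

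Several large increases fell outside these lists. Anxa8, an annexin of epithelia, had 5.42 FPKM before infection and 199 FPKM in D6T+, with 288 FPKM in D3. Hbb-y, an embryonic globin gene, was at 0.0996 FPKM in D0 and 72.1 FPKM in D6T+, and at 305 FPKM in D6T-. Trh, the gene of thyrotropin-releasing hormone, was at 0.0373 and 42.8 FPKM, with 1.92 FPKM in D3, 63.8 FPKM in D6T- and 207 FPKM in D9T+. Trh was thus still low on day 3, when Anxa8 was at its highest, and Hbb-y was higher in the Thy-1- than in the Thy-1+ cells of day 6.

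**Figure D4:**
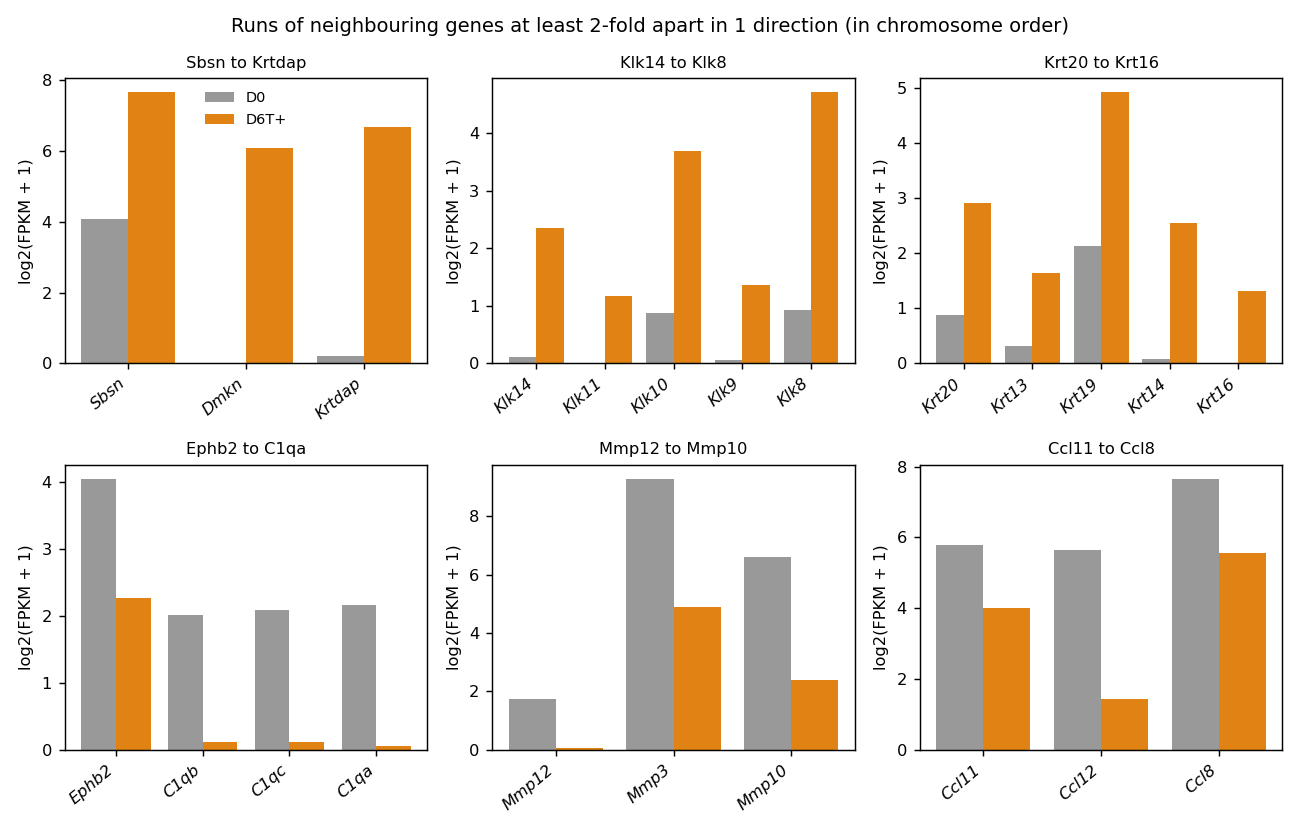
Level as log2(FPKM + 1) in D0 (grey) and D6T+ (orange) of the genes in 6 runs of neighbours, in chromosome order, with 1 library per bar. By the definition of a run, every gene in the upper panels is higher in D6T+, such as Klk8 at 0.904 and 25.4 FPKM. Every gene in the lower panels is lower, such as Mmp3 at 624.5 and 28.4 FPKM. The 3 C1q genes passed the filter only through D0.

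The genes of pluripotency stayed low. Of 30 listed genes only 10 were kept, 4 of which were higher and 1 lower, with a median of 0.28, and 5 passed the filter only through D6T+. L1td1 was at 0.0984 FPKM in D0 and 7.08 FPKM in D6T+ (2.88), Nr0b1 at 0.0559 and 2.17 FPKM (1.59), and Gdf3 at 0.0234 and 1.17 FPKM (1.08). In D6T- these genes were at 42.4, 20.9 and 5.47 FPKM. Nanog, at 0.0889 FPKM in D0 and 0.30 FPKM in D6T+, did not pass the filter, and it was at 7.30 FPKM in D9T+. Tbx3, which acts in both mesoderm and embryonic stem cells, was at 14.4 and 6.62 FPKM (-1.02).

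Interferon-stimulated genes, which encode antiviral proteins, were lower. Of 29 genes kept, 15 were lower and 2 higher, with a median of -1.33. Isg15, a ubiquitin-like antiviral protein, was at 504 FPKM in D0 and 66.1 FPKM in D6T+ (-2.91). It was lower still in D3 (5.66 FPKM) and in D6T- (11.1 FPKM), and at 206 FPKM in D9T+. Usp18, which removes ISG15 from proteins, was at 66.3 and 8.54 FPKM (-2.82), Irf7, a regulator of the response, at 83.4 and 23.03 FPKM (-1.81), and Bst2, which tethers virions to the cell, at 582 and 174 FPKM (-1.73). All 4 genes were lower in D3 than in D6T+. The higher genes were Gbp2, at 12.9 and 44.2 FPKM (1.70), and Iigp1, at 0.968 and 5.58 FPKM (1.74), both GTPases that respond to interferon gamma. Igtp, of the same group, was at 30.01 and 55.1 FPKM, and Irf1 was at 45.8 and 62.3 FPKM. These did not reach 2-fold. The related GTPase genes Gbp3 and Irgm1, of the same list, had differences of -0.02 and -0.58.

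Interferon response elements (ISRE, searched on both strands as GAAA, any 2 bases and GAAA) were found in 14 of 23 interferon promoters (60.9%) and in 3.54% of all 8992 promoters. The list was drawn up to hold genes of the interferon response, so a larger share of the element is built into its choice. The element was found in higher and in lower genes of the list. Windows of 1 higher and 4 lower genes are shown for comparison, 5′ to 3′ on the gene's strand, with every match in the window in capitals. Isg15 holds 3 overlapping matches and Ifit1 holds 2. Gbp2 lies at chr3:142620574-142620643 (plus strand), Isg15 at chr4:156200845-156200914 (minus strand), Cxcl10 at chr5:92349063-92349132 (minus strand), Ifit1 at chr19:34640774-34640843 (plus strand) and Ifit3 at chr19:34583377-34583446 (plus strand), all in GRCm38.p6.
Gbp2: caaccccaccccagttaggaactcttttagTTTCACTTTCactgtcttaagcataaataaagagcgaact
Isg15: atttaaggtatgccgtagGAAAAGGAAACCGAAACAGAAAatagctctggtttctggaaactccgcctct
Cxcl10: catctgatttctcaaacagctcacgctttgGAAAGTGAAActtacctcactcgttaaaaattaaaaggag
Ifit1: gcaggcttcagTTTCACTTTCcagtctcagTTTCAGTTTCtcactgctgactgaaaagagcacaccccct
Ifit3: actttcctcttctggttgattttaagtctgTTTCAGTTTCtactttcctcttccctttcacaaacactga
Relative to the direction of the gene, Gbp2, Ifit1 and Ifit3 hold the element in the opposite orientation to Isg15 and Cxcl10, as the capitals show. The AP-1 element was found in 7 of the 23 interferon promoters (30.4%), against the 6.25% given above.

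Genes of MHC class I presentation did not follow the interferon list. Of 15 genes kept, 2 were higher and 0 lower, with a median of 0.32. Psmb9, a subunit of the immunoproteasome, was at 5.23 FPKM in D0 and 20.1 FPKM in D6T+ (1.76), and Nlrc5, which activates class I genes, was at 1.00 and 3.77 FPKM (1.25). H2-K1 was at 53.2 and 95.8 FPKM and B2m at 289 and 281 FPKM. No test of the difference between the lists was made.

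Inflammatory genes were divided, with 6 of 19 kept genes higher, 3 lower and a median of 0.50. The neutrophil-attracting chemokine genes Cxcl5 (9.82 and 41.5 FPKM) and Cxcl1 (21.2 and 72.0 FPKM) were higher, as was Il6 (1.28 and 4.06 FPKM). Lower were Il11 (23.3 and 4.40 FPKM), Cxcl12 (77.0 and 23.3 FPKM) and the acute phase gene Saa3 (144 and 46.3 FPKM). Among the 18 of 38 chemokine genes kept, a family chosen after its values were seen, 4 were higher and 7 lower. Ccl11, Ccl12 and Ccl8 formed a run at chr11:81871325-81930301, where Ccl12 was at 49.0 FPKM in D0 and 1.73 FPKM in D6T+ (-4.20).

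Markers of other cell types were read beside these lists. Of 12 leukocyte markers, 8 were kept, of which 3 were lower and 1 higher, and 4 of the 8 passed the filter only through D0. The summed level of the 12 was 38.8 FPKM in D0 and 29.7 FPKM in D6T+. The pan-leukocyte gene Ptprc was at 0.0273 and 0.0866 FPKM, and Cd52 was listed at 0 in D6T+. The myeloid genes Lyz2 (9.47 and 0.806 FPKM) and Tyrobp (3.38 and 0.622 FPKM) were lower, and so were C1qa, C1qb and C1qc, which lie together on chromosome 4 and went from 3.47, 3.04 and 3.27 FPKM to values under 0.1 FPKM. Laptm5 was higher, at 1.37 and 3.78 FPKM. The part of these cells in the interferon and chemokine values was not tested. Mcpt8, a protease gene of mast cells and basophils (chr14:56701003-56704053 in mm9, minus strand), was at 1201 FPKM in D0 and 166 FPKM in D6T+ (-2.84), in a run with the granzyme genes Gzme and Gzmd. The mast cell genes Cpa3 and Fcer1a were listed at 0 in both libraries, and Ms4a2 was at 0 and 0.0319 FPKM. Of 8 endothelial markers, 3 were kept, Cdh5 at 11.8 and 2.63 FPKM and Tek at 0.0624 and 5.76 FPKM, with Pecam1 below 0.3 FPKM in both. Of 10 neural markers, 6 were kept and 3 were higher, led by Tubb3 at 14.8 and 72.4 FPKM, while Sox10 went from 0.983 to 0.0142 FPKM.

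**Figure D5:**
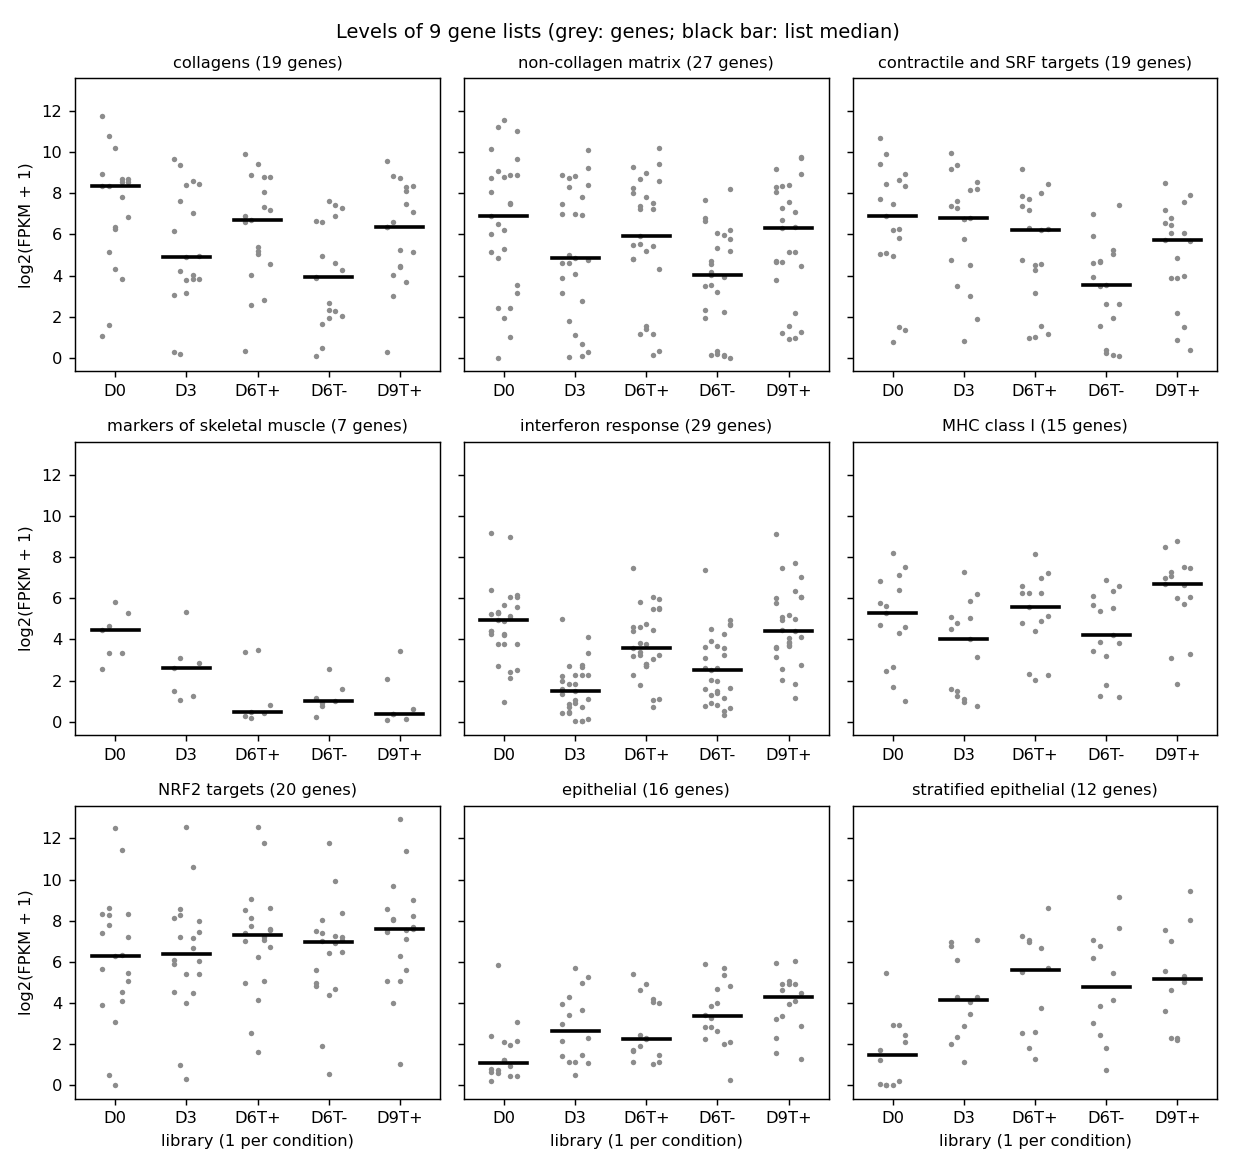
Level as log2(FPKM + 1) of the genes of 9 lists (grey points; black bar, list median) in D0, D3, D6T+, D6T- and D9T+, 1 library per condition. Collagen and interferon medians in D6T+ lie below those in D0 and above those in D3 and D6T-. Among the libraries shown, the muscle median is lowest in D6T+ and D9T+, at 0.47 and 0.38. In the Thy-1- fraction of day 9 (D9T-), not shown, it was 0.33.

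Genes that protect against oxidants through the factor NRF2 were higher. Of 20 genes kept, 8 were higher and 0 lower, with a median of 0.82, and 2 passed the filter only through D6T+. Gsta4, a glutathione transferase, was at 22.3 FPKM in D0 and 133 FPKM in D6T+ (2.52), and Mgst1, a membrane transferase, was at 43.3 and 188 FPKM (2.09). Nqo1, a quinone reductase, was at 49.9 and 168 FPKM (1.73), against 58.7 FPKM in D3 and 48.4 FPKM in D6T-. Slc7a11, the cystine transporter for glutathione synthesis, was at 0.418 and 4.86 FPKM (2.05). Of 15 glutathione transferase genes kept, a family chosen after its values were seen, 7 were higher and 0 lower. Of the 15, 4 were under 1 FPKM in D0 and passed the filter only through D6T+.

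The antioxidant response element (ARE, searched after the values were seen as TGACNNNGC on both strands, which may overlap AP-1 elements) was found in 7 of 16 NRF2 target promoters (43.8%) and in 16.9% of all promoters. The list was drawn up to hold targets of NRF2, so a larger share of the element is built into its choice. Windows of the 3 holders with the largest increases are shown with the element in capitals, in GRCm38.p6. Mgst1 lies at chr6:138140441-138140509, Prdx1 at chr4:116685436-116685504 and Gclm at chr3:122245393-122245461, all on the plus strand.
Mgst1: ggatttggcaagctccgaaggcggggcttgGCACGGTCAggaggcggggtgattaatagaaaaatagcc
Prdx1: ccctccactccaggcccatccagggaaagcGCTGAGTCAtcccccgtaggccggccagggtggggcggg
Gclm: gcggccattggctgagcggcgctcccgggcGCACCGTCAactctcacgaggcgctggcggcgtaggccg
Prdx1, a peroxidase, was at 14.1 FPKM in D0 and 30.9 FPKM in D6T+ (1.08), and Gclm, a subunit of the glutathione-making enzyme, was at 16.4 and 32.7 FPKM, short of 2-fold. The other holders G6pdx, Txnrd1, Pgd and Srxn1 had differences of 0.89, 0.38, 0.32 and -0.35. Nqo1, Slc7a11, Gsta1 and Gstm1 do not hold these letters in this window.

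Growth and metabolism lists had few genes past 2-fold. Of 33 DNA replication genes, 0 were higher and 0 lower, with 31 below 0 and a median of -0.27. The median of 31 mitosis genes was -0.47, again with 0 past 2-fold. Setting both libraries to the same total gave medians of -0.04 and -0.22. Of 24 genes of ribosome biogenesis and other targets of c-Myc, 21 were above 0 and the median was 0.27. Only 1 was higher, the transferrin receptor gene Tfrc, at 0.528 and 2.17 FPKM. Of 21 genes of glycolysis and hypoxia, Pdk1 was higher, at 1.82 and 5.09 FPKM, and the median was 0.28. The lists of oxidative phosphorylation, cholesterol synthesis, DNA methylation and Polycomb, and unfolded protein response each had 0 genes past 2-fold. Of 23 CDK inhibitors and p53 targets, Gdf15 was higher, at 11.8 and 38.5 FPKM, and Cdkn1c (53.9 and 18.2 FPKM) and Pmaip1 were lower. Genes of histone variant H3.3 and its chaperones, 10 in all, had 0 past 2-fold, with H3f3b at 306 and 179 FPKM and H3f3a at 75.6 and 87.3 FPKM.

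A last group held the genes in which D6T+ stood at least 2-fold above D0, D3 and D6T- alike, 83 genes in all, chosen after their values were seen. Tac1, the gene of the neuropeptide substance P, was at 38.5 FPKM in D6T+ and at 4.49, 0.627 and 2.67 FPKM in D0, D3 and D6T-. Itgb7, an integrin chain, was at 120 FPKM in D6T+ and at 21.7, 17.1 and 16.5 FPKM in the other three. Slpi, an inhibitor of leukocyte proteases, was at 106 FPKM in D6T+ and at 26.0, 6.07 and 22.4 FPKM. Their levels in D9T+ were 35.6, 62.5 and 590 FPKM, all above those of D0. Nqo1, Cyp26b1, Igfbp6, Cxcl5, Aqp1 and Prelp, described above, were in the same group. The reverse pattern, D6T+ at least 2-fold below each of D0, D3 and D6T-, held for 4 genes, namely the muscle genes Tnni1, Tnnc2 and Mylpf and the small nucleolar RNA gene Snora78.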

How the data were processed

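TruSeq libraries of polyA RNA, stranded per the labels but with a kit named without that word in the study's methods, were mapped by the authors to mm9 with STAR, reads with several loci or too many mismatches were removed, and Cuffdiff gave the deposited FPKM values with an interval for each. Tool versions, the annotation and the library scaling are not given in the sources used here. The 12 status columns were not used. D0 and D6T+ were compared as log2(FPKM + 1) over genes of at least 1 FPKM in either library, 2-fold being the threshold, in Python 3.11.15 with pandas 2.3.3, numpy 2.4.6 and matplotlib 3.10.9. Functions were checked on simulated data. The comparison and the 43 gene lists (799 genes, 4 symbols not found) were chosen with earlier results of these data known. Genes named were the 15 largest increases and decreases of at least 10 FPKM (without the 4 factors, loci under 500 bases and unnamed transcripts), up to 5 list members per direction with any past 2-fold, and all cell type markers; others are marked as chosen later. Positions are from GENCODE in mm9 (100 of 101 genes sought had a single position) and promoters from RefSeq in GRCm38.p6. Alternatives were the pseudocount, the filter, the scaling, short loci, GC content and muscle genes. Some genes that met the rule are not reported here.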

Additional observations from a re-analysis of the deposited data

How the results depend on the processing

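Raising the filter to 5 FPKM left 410 higher and 484 lower genes, and a 4-fold threshold left 202 and 107. With a pseudocount of 0.1 the counts were 979 and 863, with libraries scaled by the median of ratios 756 and 551, and without loci under 500 bases 683 and 621. After centring within 5 bins of GC content, chosen after seeing the data, they were 713 and 458, and without 28 skeletal muscle genes, also chosen after, 685 and 598. Scaling to the same total and by the median of ratios shifted log2 ratios by 0.27 and 0.085, under the 1.5-fold margin of 0.585. Shifts of this size can hardly move a median past the margin, and 0 of 43 list medians moved by more than 1.5-fold. The pseudocount of 0.1 moved 4, removal of the filter 4 and the 5 FPKM filter 6, among them pluripotency, from 0.28 to -0.48, and epithelial and stratified epithelial genes, from 1.05 to 2.53 and from 2.86 to 3.81. Leaving out muscle genes moved the contractile median from -1.24 to -0.64, with 8 of 17 genes lower. Medians of the CDK inhibitor, IGF, LIF, housekeeping, oxidative phosphorylation, canonical Wnt target and unfolded protein lists changed sign with the same total FPKM. Of 483 named differences, 82 moved with the pseudocount of 0.1. No paired analysis was possible because each condition had 1 library. Without replicates, the spread between cultures is unknown.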
